A study of Mus musculus with 18 samples.

Results

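Major urinary protein (Mup) genes encode small secreted lipocalins, barrel-shaped carriers that bind volatile pheromones. The liver makes most of them, releases them into the blood, and the kidney passes them into urine, where they serve as scent signals. In the mouse liver the family is known for a higher level in males than in females, which depends on the pulsed pattern of growth hormone acting through the hepatocyte factor STAT5B. The 7 genes described here, Mup1, Mup3, Mup7, Mup11, Mup17, Mup20 and Mup21, were taken by name from the 22 Mup-named genes among the 32285 genes of the liver count table. All 7 passed the filter on low counts. Across the 3 groups of mice their levels differed most between replicates 1 to 3 and replicates 4 to 6 of the same group, where each member was higher in replicates 1 to 3. Against wild-type mice, pups from frozen germ cells had lower Mup11 in replicates 4 to 6, 22.4-fold in Space and 17.8-fold in Ground, and Ground pups also had lower Mup20, Mup7 and Mup1 there, although the Mup7 and Mup1 calls did not hold without some single libraries. The log2 difference of Mup20 in Ground was -2.32 in place of -3.03 with 3 libraries left out. Mup3, the most abundant member, was not called lower in any of these comparisons. No member was called between Space and Ground by edgeR, and DESeq2 called Mup20 in replicates 4 to 6, a difference that was smaller with 3 libraries left out.

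The 18 liver RNA libraries came from 3 groups of 6. Space and Ground were B6D2F1 pups, wild-type by label, whose fathers' germ line came from DBA/2 GS cells. GS cells are spermatogonial stem cells grown in culture, and these were stored frozen for 6 months, in orbit on the ISS for Space and on Earth for Ground. Per the methods, these cells carry an EGFP transgene under an actin promoter, were thawed and transplanted into testes of W mouse pups, which have no spermatogenesis of their own, and the recipients were then mated with C57BL/6 females. Livers were taken at 10 weeks of age. BDF1 were wild-type B6D2F1 mice labelled control, for which the labels give no age. The labels give no sex, while the paper states that F1 males and females of each group were analysed. The recipient and litter behind each pup are not stated, so that p-values measure only the spread between these samples, some of which may share a father.

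Total counts ranged from 15407450 to 20562351 per library. Every group split in the same way by replicate number. In replicates 1 to 3 the X-inactivation transcript Xist had 0 to 187 counts and Uty, Kdm5d, Eif2s3y and Ddx3y of the Y chromosome had 183 to 1034, whereas in replicates 4 to 6 Xist had 12218 to 21557 counts and these Y genes had 0 to 13. The counts above 0 among the latter lay in the 3 BDF1 libraries and in the replicate 4 library of Space. Ddx3y had 5, 2 and 13 counts in these BDF1 libraries and 891, 757 and 769 in BDF1 replicates 1 to 3. The part of these reads in the values of the Mup genes, and of other genes higher in replicates 1 to 3, was not tested. Groups were therefore compared within replicates 1 to 3 and within replicates 4 to 6. Hepatocyte markers were high in every library, with a summed level of 67522 to 384950 CPM (counts scaled to a common library total), of which albumin made up most, and the 15 markers of other liver cells summed to 172.5 to 327.2 CPM. Of 7 genes typical of glands that also make MUPs, Obp1a, Obp1b, Lpo, Smr3a and Esp1 had 0 counts in all libraries, and the list summed to at most 2.83 CPM. Of 7 pancreas markers, Cpb1, Pnlip and Amy2a5 had 0 counts in all libraries, and those other than Cela1 summed to at most 0.403 CPM. In bulk liver RNA, fewer cells of a type and less RNA per cell cannot be told apart.

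The members lie on the minus strand of mouse chromosome 4 (mm10) within 2084.4 kb. From the centromere side they are Mup7 (chr4:60066469-60070475), Mup1 (chr4:60498012-60501960), Mup11 (chr4:60658466-60662411), Mup17 (chr4:61591929-61595871), Mup20 (chr4:62050234-62054158), Mup3 (chr4:62083476-62087342) and Mup21 (chr4:62147932-62150863). The annotation of this cluster held 48 Mup-named genes, of which 22 were protein-coding and 26 were pseudogenes. All 22 coding genes were in the count table. Mup1, Mup7, Mup11 and Mup17 belong to a set of nearly identical copies. Their longest coding transcripts were 98.4 to 99.0% identical to one another over the aligned bases. Mup20, which encodes the male pheromone darcin, was 90.6 to 91.0% identical to these 4, and Mup3 and Mup21 were 96.1% identical to each other.

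Such likeness limits which gene a read can be given to. Cutting each longest coding transcript into windows of 75 bases, the share found in no other annotated gene was 93.2% for Mup3, 89.7% for Mup21, 56.4% for Mup20, 31.3% for Mup17, 14.3% for Mup11, 14.2% for Mup7 and 9.50% for Mup1. How the authors' counting treated reads that fit several genes was not given in the sources used here. The separate values of Mup1, Mup7, Mup11 and Mup17 are therefore uncertain, and the sum over the members is given beside them.

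**Figure D1:**
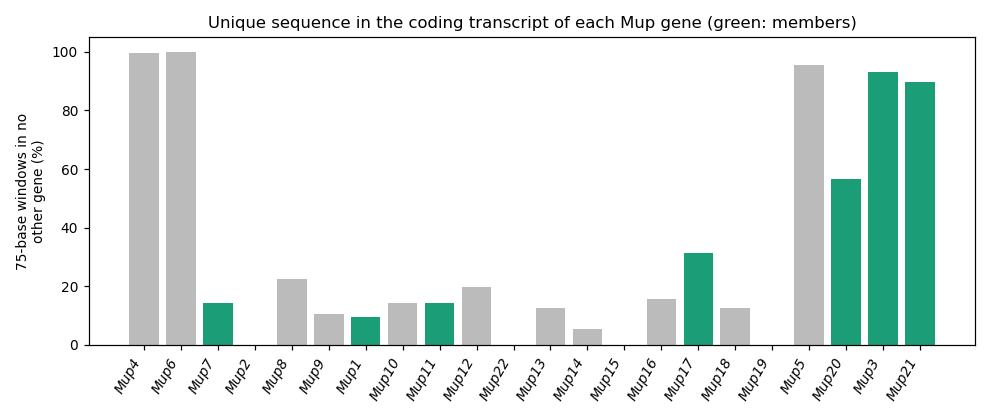
Percent of 75-base windows of the longest coding transcript that occur in no other annotated gene (vertical axis, bars from 0), for the 22 protein-coding Mup genes, with the 7 members in green. Mup3 and Mup21 have the largest shares among the members, 93.2% and 89.7%, and Mup1 the smallest, 9.50%.

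Promoter sequences of 4 members are shown. The log2 differences from BDF1 were positive for Mup3 and Mup21 and negative for Mup11 and Mup17 in both pup groups and replicate sets. Mup17 and Mup21 were called in no comparison of groups by edgeR with all 18 libraries. Whether the patterns of these members differ was not tested. Of the 7 members, 5 had an entry in the RefSeq promoter table (GRCm38.p6), and Mup1 and Mup20 did not. Each line is the 250 bases before the start that this table gives, read 5′ to 3′ on the minus strand. These starts lie inside the gene bounds given above, which come from GENCODE, so that the end of each window overlaps the annotated gene. Capitals mark ATCAAT, the core of the site bound by the hepatocyte factor HNF6 (Onecut1), and TATATAA, which resembles the TATA box. The windows are chr4:62087318-62087567 for Mup3, chr4:62150842-62151091 for Mup21, chr4:60662396-60662645 for Mup11 and chr4:61595833-61596082 for Mup17.
Mup3: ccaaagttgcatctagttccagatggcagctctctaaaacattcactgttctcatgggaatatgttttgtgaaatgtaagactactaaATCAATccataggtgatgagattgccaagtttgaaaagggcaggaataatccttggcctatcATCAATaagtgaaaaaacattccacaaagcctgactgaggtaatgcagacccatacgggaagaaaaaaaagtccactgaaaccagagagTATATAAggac
Mup21: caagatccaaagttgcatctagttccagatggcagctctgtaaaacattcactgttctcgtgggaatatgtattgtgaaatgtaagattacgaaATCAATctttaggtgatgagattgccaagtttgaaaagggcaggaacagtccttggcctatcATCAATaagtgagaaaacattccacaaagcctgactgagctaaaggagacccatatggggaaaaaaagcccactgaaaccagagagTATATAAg
Mup11: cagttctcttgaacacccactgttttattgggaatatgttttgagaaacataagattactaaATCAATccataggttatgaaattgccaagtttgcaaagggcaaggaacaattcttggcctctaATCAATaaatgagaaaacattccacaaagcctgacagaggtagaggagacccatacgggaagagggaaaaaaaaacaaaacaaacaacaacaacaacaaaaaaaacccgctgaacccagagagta
Mup17: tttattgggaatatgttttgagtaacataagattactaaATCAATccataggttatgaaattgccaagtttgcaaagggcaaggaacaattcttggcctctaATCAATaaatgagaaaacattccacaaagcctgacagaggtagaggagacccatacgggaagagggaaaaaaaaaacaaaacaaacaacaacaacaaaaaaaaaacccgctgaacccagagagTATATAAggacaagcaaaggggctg

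Over aligned bases, the windows of Mup3 and Mup21 were 93.44% identical, those of Mup11 and Mup17 were 99.56% identical, and those of Mup3 and Mup11 were 81.9% identical. Both strands were searched for 4 motifs, and TATATAA can overlap its own reverse complement. ATCAAT occurred in 5 of 5 member windows, in each of the 14 Mup windows of the table and in 6.724% of all 32851 windows of this length. TATATAA occurred in the windows of Mup3, Mup17 and Mup21, in 11 of the 14 Mup windows and in 3.038% of all windows. The Mup11 window ends inside the stretch that aligns with TATATAA of Mup17, and the letters beyond it were not searched. TTCNNNGAA, the palindrome that STAT5 factors bind, occurred in 0 of 5 member windows and in 7.02% of all windows. TTGCGCAA, a C/EBP palindrome, occurred in 0 of 5 and in 0.164%. A match is a description of the letters, and the absence of one says only that these letters are not in this window.

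Mup3 was the most abundant member per kilobase of exon in all 6 combinations of group and replicate set, and its libraries lay above those of the next member in each. In replicates 1 to 3 of BDF1 the mean level was 6385 ± 42.0 CPM per kb (SD, n = 3) for Mup3, 3385 ± 538 for Mup20, 2748 ± 535 for Mup7, 1326 ± 232 for Mup17, 390.35 ± 55.6 for Mup21, 318 ± 32.4 for Mup11 and 17.0 ± 12.6 for Mup1. In that order Mup20 and Mup7, and Mup21 and Mup11, overlapped. In Space replicates 1 to 3 Mup7 and Mup20 overlapped, and Mup21, at 789 ± 29.4 CPM per kb, lay above Mup17, at 677 ± 80.4. In Ground replicates 1 to 3 Mup20, Mup7, Mup17 and Mup21 each overlapped the next. Mup17 was second in replicates 4 to 6 of all 3 groups, at 162 ± 118, 121 ± 40.5 and 251 ± 16.2 CPM per kb in Space, Ground and BDF1. Mup1 was last in all 6 combinations. The share of sequence found in no other gene differed between the members, from 9.50% for Mup1 to 93.2% for Mup3, so that the order of levels between them is uncertain where reads that fit several genes were dropped or divided.

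Mup3 encodes a urinary protein whose gene lies beside Mup20 and Mup21 at the far end of the members' stretch. Its level in replicates 1 to 3 was 9672, 11088 and 10862 CPM in Space, 9408, 10709 and 9725 in Ground, and 6767, 6844.5 and 6845 in BDF1. Replicates 4 to 6 had 3621, 3939 and 3067 CPM in Space, 2833, 2741 and 2709 in Ground, and 2232, 1650.0 and 3298.5 in BDF1. Every library of replicates 1 to 3 was above every library of replicates 4 to 6, and in replicates 1 to 3 both pup groups lay above BDF1 without overlap. The fold between replicates 1 to 3 and 4 to 6 was 2.98 in Space, 3.60 in Ground and 2.85 in BDF1, the smallest of the 7 members in each group.

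Mup20 (darcin) showed the largest such fold in Ground and BDF1. Its level in replicates 1 to 3 was 1914, 2575 and 2635 CPM in Space, 3350.2, 1616 and 5378 in Ground, and 3704, 2750 and 2970 in BDF1. Replicates 4 to 6 had 32.2, 34.0 and 33.8 CPM in Space, 14.9, 6.05 and 6.29 in Ground, and 111.7, 29.0 and 84.0 in BDF1. The lowest library of replicates 1 to 3 lay far above the highest of replicates 4 to 6, while in replicates 4 to 6 every Ground library was below every BDF1 and every Space library. The fold between the replicate sets was 71.3 in Space, 377 in Ground and 41.9 in BDF1.

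Mup11, one of the nearly identical copies, was at 121.2, 161 and 157 CPM in Space replicates 1 to 3, at 283, 70.1 and 573 in Ground and at 481, 463 and 559 in BDF1. Its level in replicates 4 to 6 was 2.34, 1.08 and 0.520 CPM in Space, which were 30, 18 and 9 counts, and 1.58, 2.50 and 0.622 in Ground, which were 27, 38 and 9 counts. The BDF1 libraries of replicates 4 to 6 had 35.6, 17.0 and 32.1 CPM, or 723, 380 and 636 counts. All pup libraries of replicates 4 to 6 were thus under all BDF1 libraries of these replicates, and in replicates 1 to 3 the Space libraries, but not the Ground libraries, were all below BDF1.

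Mup7, another of these copies, was at 2662, 2835 and 2507 CPM in Space replicates 1 to 3, at 2889, 1207 and 4009 in Ground and at 3428, 2332.5 and 2754 in BDF1. Among replicates 4 to 6 it was at 60.8, 10.1 and 7.75 CPM in Space, 14.8, 23.1 and 11.5 in Ground and 91.3, 44.2 and 78.0 in BDF1. The 3 groups overlapped in replicates 1 to 3, and in replicates 4 to 6 the Ground libraries, though not all Space libraries, were below BDF1.

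Mup17 had 545, 691 and 648 CPM in Space replicates 1 to 3, 1033, 403 and 1484 in Ground and 1477, 1096 and 1114 in BDF1. Replicates 4 to 6 had 269.8, 126 and 55.9 CPM in Space, 134, 134 and 68.7 in Ground and 248, 219 and 229.8 in BDF1. The Ground library of replicate 2 was below the other Ground libraries of replicates 1 to 3 for Mup7, Mup11, Mup17, Mup20 and Mup1.

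Mup21, the close relative of Mup3, had 513, 537 and 552 CPM in Space replicates 1 to 3, 693, 685 and 747 in Ground and 281, 291 and 221 in BDF1. Replicates 4 to 6 had 50.05, 8.19 and 7.17 CPM in Space, 6.71, 40.5 and 26.1 in Ground and 12.4, 5.24 and 18.6 in BDF1. The 3 groups did not overlap in replicates 1 to 3, with Ground above Space and Space above BDF1, whereas they overlapped in replicates 4 to 6.

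Mup1 was the scarcest member. It had 8.41, 5.54 and 5.16 CPM in Space replicates 1 to 3, 11.7, 3.48 and 16.8 in Ground and 49.97, 14.4 and 16.7 in BDF1. Its reads in replicates 4 to 6 were 8, 16 and 6 counts in Space, 8, 2 and 0 in Ground and 41, 23 and 42 in BDF1. The replicate 1 library of BDF1 was well above the other BDF1 libraries of replicates 1 to 3, and the 0 counts in the replicate 6 library of Ground allow a level of up to 0.207 CPM, for counting error only.

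**Figure D2:**
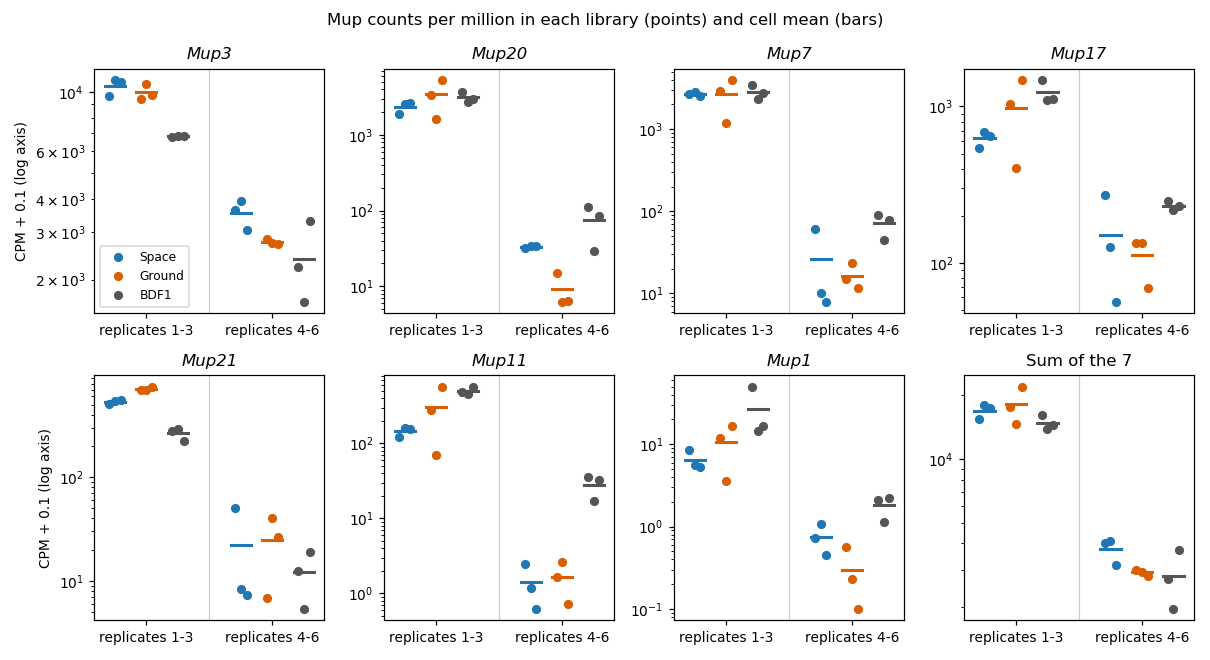
Level of each member and of the sum of the 7 in every library, as CPM plus 0.1 on a log axis (vertical), for Space, Ground and BDF1, with replicates 1 to 3 and 4 to 6 drawn apart. Points are libraries and bars are means of 3 libraries. In all panels replicates 1 to 3 lie above replicates 4 to 6, and the distance is smallest for Mup3, 2.85-fold to 3.60-fold.

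The question of which members differ between the replicate sets was asked within each group with edgeR's quasi-likelihood test, Benjamini-Hochberg adjusted over all 13356 genes tested. All 7 members were higher in replicates 1 to 3, with no overlap between the sets, in Space, in Ground and in BDF1. Of all genes tested, 10.4% were called higher in Space, 8.71% in Ground and 7.33% in BDF1, and 20.1%, 13.8% and 20.6% were higher without overlap. The log2 difference of Mup3 was 1.57 (SE 0.20, adjusted p = 4.09e-05) in Space, 1.85 (SE 0.20, adjusted p = 9.31e-06) in Ground and 1.51 (SE 0.20, adjusted p = 9.21e-05) in BDF1. That of Mup20 was 6.16 (SE 0.54, adjusted p = 9.38e-07) in Space, 8.56 (SE 0.61, adjusted p = 7.58e-08) in Ground and 5.39 (SE 0.52, adjusted p = 3.35e-06) in BDF1. The other 5 members had log2 differences of 2.06 for Mup17 in Space to 7.61 for Mup11 in Ground, with adjusted p of at most 0.00515. The median log2 difference over the members was 4.63 in Space, 5.61 in Ground and 4.15 in BDF1, beside medians over all genes of -0.0073, 0.00092 and -0.0093. Leaving out any of the 18 libraries lost none of these calls. Among single libraries left out, the values moved without the replicate 4 library of Space, to 8.22 for Mup7, 7.51 for Mup11, 2.79 for Mup17 and 6.12 for Mup21 in Space, and without the replicate 4 library of Ground, to 7.17 for Mup1 in Ground. Mup11 in Ground was 6.80 without the replicate 3 library of Ground, and Mup1 in BDF1 was 3.19 without the replicate 1 library of BDF1. Mup21 in Ground was 6.71 without the replicate 4 library of Space and the replicate 5 and 6 libraries of Ground, an alternative added after the values had been seen.

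**Figure D3:**
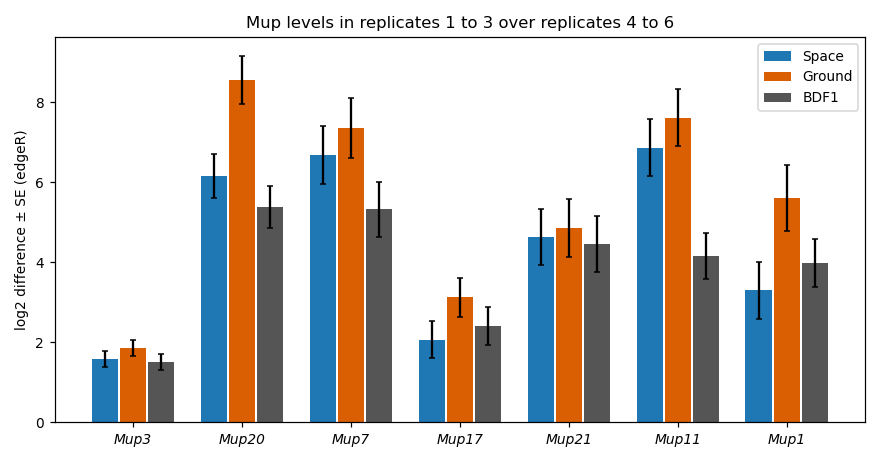
Log2 difference between replicates 1 to 3 and replicates 4 to 6 (vertical axis, bars from 0) for each member in Space, Ground and BDF1, with error bars of 1 SE. The bars of Mup3, 1.51 to 1.85, are the lowest in every group, and the tallest is Mup20 in Ground at 8.56.

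Storage on the space station was compared with storage on Earth within each replicate set. No member was called in either: 0 of 7 in replicates 1 to 3, where 0.00749% of all genes were called, and 0 of 7 in replicates 4 to 6, where 0.0225% were called by edgeR. At an unadjusted p below 0.05 there were 1292 genes in the former and 1852 in the latter. In replicates 1 to 3 the Space and Ground libraries overlapped for all members except Mup21, which was 0.41 lower in Space on the log2 scale (-0.41, SE 0.61, adjusted p = 0.875), and 16.6% of all genes did not overlap. Mup11 had a log2 difference of -1.08 (SE 0.51, adjusted p = 0.518) and Mup1 of -0.74 (SE 0.52, adjusted p = 0.687). Among replicates 4 to 6 the groups did not overlap for Mup20, with a log2 difference of 1.87 (SE 0.47, adjusted p = 0.160), or for Mup3, with 0.36 (SE 0.20, adjusted p = 0.429), that is 2 of 7 members beside 13.7% of all genes. DESeq2's Wald test called Mup20 there (log2 difference 1.86, adjusted p = 0.0193). In edgeR's fit without the replicate 4 library of Space and the replicate 5 and 6 libraries of Ground, the difference was 1.17 (adjusted p = 0.482). The difference between the replicate sets called no member and 0% of all genes, and pooling both sets called no member beside 0.0225% of all genes.

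Pups of each kind were then compared with BDF1, the same 6 control libraries serving both, so that these comparisons are not independent and their values are given side by side. In replicates 1 to 3, Mup1 was lower in Space than in BDF1, by edgeR's test, and the other members were not called (1 of 7 lower, beside 1.80% of all genes). The log2 difference of Mup1 was -2.09 (SE 0.53, adjusted p = 0.0331). This call was lost without the replicate 1, 2 or 3 library of Space or the replicate 1 library of BDF1, and without the last the value was -1.28 (adjusted p = 0.212). limma voom did not call it either (adjusted p = 0.0536). Mup11 had -1.77 (SE 0.52, adjusted p = 0.0636) and passed without the replicate 4 library of Space or the replicate 2 or 3 library of Ground. Mup3 had 0.63 (SE 0.20, adjusted p = 0.0829), passing without the replicate 5 or 6 library of BDF1 and with DESeq2 (adjusted p = 0.0104), and Mup21 had 1.01 (SE 0.61, adjusted p = 0.391). Between Space and BDF1 in these replicates, 6 of 7 members did not overlap, as did 35.2% of all genes tested.

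Ground against BDF1 in replicates 1 to 3 called 0 of 7 members by edgeR, beside 1.92% of all genes. Mup21 and Mup3 did not overlap, with log2 differences of 1.42 (SE 0.62, adjusted p = 0.268) and 0.54 (SE 0.20, adjusted p = 0.176), 2 of 7 members beside 23.9% of all genes, and DESeq2's Wald test called Mup3 (adjusted p = 0.0448). The other 5 overlapped, with log2 differences of -1.34 for Mup1 to 0.13 for Mup20. Both kinds of pups thus had higher values of Mup3 and Mup21 than BDF1 in these replicates, none of which passed edgeR's threshold with all 18 libraries in the fit. Mup21 did pass when the replicate 4 library of Space and the replicate 5 and 6 libraries of Ground were left out (adjusted p = 0.0293 in Space and 0.00801 in Ground), and when the fit held only the libraries compared (adjusted p = 0.000302 and 0.00561).

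Among replicates 4 to 6 the nearly identical copies and Mup20 gave the called differences. Mup11 was 22.4-fold lower in Space than in BDF1 (log2 -4.48, SE 0.68, edgeR adjusted p = 0.00102) and 17.8-fold lower in Ground (log2 -4.16, SE 0.65, adjusted p = 0.000868). Mup20 was 8.19-fold lower in Ground (log2 -3.03, SE 0.48, adjusted p = 0.000908), Mup7 4.32-fold lower (log2 -2.11, SE 0.61, adjusted p = 0.0271) and Mup1 7.84-fold lower (log2 -2.97, SE 0.96, adjusted p = 0.0466). In counts, 1 of 7 members was lower in Space, beside 5.49% of all genes, and 4 of 7 were lower in Ground, beside 7.35%. By edgeR no member was called higher in either, beside 6.43% of all genes in Space and 7.86% in Ground.

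The remaining members did not pass edgeR's threshold in replicates 4 to 6. In Space, Mup20 had a log2 difference of -1.17 (SE 0.45, adjusted p = 0.0936) and Mup7 of -1.45 (SE 0.59, adjusted p = 0.116), and their libraries overlapped those of BDF1. Mup3 had 0.57 (SE 0.20, adjusted p = 0.0688) in Space and 0.21 (SE 0.20, adjusted p = 0.514) in Ground. Other tools called Mup3 in Space, DESeq2 with an adjusted p of 0.0167 and limma voom with 0.0398, and limma voom also called Mup7 there (adjusted p = 0.0179). Mup1 had -1.40 in Space (SE 0.78, adjusted p = 0.246), without overlap. Mup17 had -0.63 in Space and, without overlap, -1.05 in Ground (adjusted p = 0.131), and Mup21 had 0.84 and 1.02. In all, 2 of 7 members did not overlap BDF1 in Space, beside 31.5% of all genes, and 5 of 7 in Ground, beside 30%. The direction of Mup21 turned in Space without its replicate 4 library (log2 -0.65), and in both pup groups without that library and the replicate 5 and 6 libraries of Ground (log2 -0.65 in Space and -0.84 in Ground). The Mup11 and Mup20 calls held without any 1 library. The Mup7 call in Ground was lost without the replicate 4 or 6 library of Ground or of BDF1 (log2 -2.04 to -1.89), and that of Mup1 without 12 of the 18 libraries, its log2 difference lying between -4.53, without the replicate 4 library of Ground, and -2.45, without the replicate 6 library of Ground. limma voom did not call Mup1 there (adjusted p = 0.285). Mup11 in Space had -5.13 without the replicate 4 library of Space. In Space, Mup7 passed without the replicate 4 library of Space (log2 -2.99, adjusted p = 0.00204), Mup20 without the replicate 5 library of BDF1 (log2 -1.56, adjusted p = 0.0383) and Mup3 without the replicate 6 library of BDF1 (log2 0.87, adjusted p = 0.00899).

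Other features moved with the replicate 4 to 6 pup libraries. Albumin took 17.6 to 24.1% of their counts, 6.72 to 8.03% in BDF1 replicates 4 to 6 and 4.47 to 6.45% in replicates 1 to 3 of all groups. Of 10 hepatocyte markers, Alb and Apoa1 were higher and Tdo2 and Cyp2e1 lower in each pup group than in BDF1. Of all genes, 6.43% were higher and 5.49% lower in Space, and 7.86% and 7.35% in Ground. The list medians were 0.11 in Space and 0.08 in Ground on the log2 scale. The summed level of the list, mostly albumin, was 223130 to 384950 CPM in the pups against 84040 to 106480 CPM in BDF1. The scaling factors of these pup libraries were 0.704 to 0.970, against 1.03 to 1.17 elsewhere. With total counts as the only scaling, the median log2 difference over all genes moved to -0.39 in Space and -0.46 in Ground against BDF1, and on that scale Mup3 in Ground had -0.24 in place of 0.21. The markers of other liver cells summed to 237 to 327.2 CPM in these pup libraries and to 187 to 281 CPM in BDF1 replicates 4 to 6. Of 7 pancreas markers only Cela1 was tested, and it was lower in replicates 4 to 6 of Space (log2 -1.29) and Ground (log2 -1.95) than in BDF1. The list, nearly all Cela1, summed to 9.48 to 18.6 CPM in Space, 6.77 to 12.6 in Ground and 33.6 to 39.3 in BDF1. The part of these features in the Mup values was not tested. In addition, the replicate 4 library of Space and the replicate 5 and 6 libraries of Ground stood apart from the other libraries of replicates 4 to 6 in several growth hormone-responsive genes. Cux2 was at 110.2, 95.2 and 111 CPM in them and at 8.03 to 34.1 CPM in the others, and Bcl6 was at 5.62, 5.07 and 4.42 CPM against 8.96 to 49.8 CPM. Leaving out these 3 libraries was an alternative added after the values had been seen, in which the single Ground library left is assumed to vary like the other groups. Then Mup11 was lower in Space (log2 -5.14, adjusted p = 0.00242) and in Ground (log2 -4.15, adjusted p = 0.0276), and Mup7 in Space (log2 -2.997, adjusted p = 0.00121) and in Ground (log2 -2.26, adjusted p = 0.0262). Mup20 (log2 -2.32, adjusted p = 0.0553) and Mup1 (log2 -1.85, adjusted p = 0.469) in Ground no longer passed.

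Whether a difference from BDF1 was itself different between the replicate sets was tested with an interaction term in the edgeR fit. For Ground, the log2 difference in replicates 1 to 3 exceeded that in replicates 4 to 6 by 3.46 for Mup11 (SE 0.82, adjusted p = 0.0329) and by 3.17 for Mup20 (SE 0.64, adjusted p = 0.0158), that is 2 of 7 members beside 1.40% of all genes. The Mup11 call was lost without the replicate 1, 3 or 6 library of Ground or the replicate 1, 2, 3, 4 or 6 library of BDF1, with values of 2.64 to 3.54, and with limma voom (3.10, adjusted p = 0.188). Without the 3 libraries that stood apart, neither was called (Mup11 adjusted p = 0.14, Mup20 adjusted p = 0.130). For Space, 0 of 7 members were called by edgeR, beside 3.19% of all genes and 2541 genes at an unadjusted p below 0.05, and Mup11 had 2.71 (SE 0.84, adjusted p = 0.0876).

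Averaged over both replicate sets, Mup3 was higher in Space than in BDF1 (log2 0.60, SE 0.14, edgeR adjusted p = 0.0113), and Mup1 (log2 -1.74, SE 0.46, adjusted p = 0.0218) and Mup11 (log2 -3.13, SE 0.43, adjusted p = 0.000444) were lower, 3 of 7 members beside 12.9% of all genes. In Ground, Mup1 (log2 -2.16, SE 0.54, adjusted p = 0.0143), Mup11 (log2 -2.43, SE 0.41, adjusted p = 0.0017) and Mup20 (log2 -1.45, SE 0.32, adjusted p = 0.00754) were lower, 3 of 7 beside 7.35% of all genes lower. The Mup1 call in Space was lost without the replicate 1 or 4 library of BDF1 (log2 -1.35 and -1.68), and Mup1 in Ground had -2.94 without the replicate 4 library of Ground. limma voom called Mup1 in neither (adjusted p = 0.155 in Space and 0.143 in Ground). Mup3 in Space did not pass with total counts as scaling (log2 0.34, adjusted p = 0.0614), nor Mup20 in Ground with group and replicate set as additive terms (log2 -1.25, adjusted p = 0.131). Without the 3 libraries that stood apart, Mup1 and Mup20 in Ground did not pass (adjusted p = 0.166 and 0.0836). The averages in Ground joined unlike values, 0.13 in replicates 1 to 3 and -3.03 in replicates 4 to 6 for Mup20, and -0.70 and -4.16 for Mup11.

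The sum of the 7 members does not depend on how reads were divided among these 7, but reads dropped, or given to other Mup genes or pseudogenes, would change it and the share of Mup3 in it. For replicates 1 to 3 it was 16898 ± 1293 CPM in Space, 18098 ± 3639 in Ground and 14819 ± 1234 in BDF1 (SD, n = 3 each), or 1.77%, 1.98% and 1.70% of all counts. For replicates 4 to 6 it was 3776 ± 524, 2925 ± 93.6 and 2814 ± 892 CPM, or 0.320%, 0.238% and 0.313% of all counts. Replicates 1 to 3 exceeded replicates 4 to 6 by 4.47-fold in Space, 6.19-fold in Ground and 5.27-fold in BDF1. Between groups, the libraries overlapped in CPM in every comparison except Space against Ground in replicates 4 to 6, where the ratio was 1.29. As a percent of all counts these overlapped too, with 0.284% in the replicate 6 library of Space and 0.291% in the replicate 4 library of Ground. The 15 other Mup genes added little, the sum over all 22 being 17336, 18673 and 15578 CPM in replicates 1 to 3 of Space, Ground and BDF1.

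Mup3 had the largest share of this sum among the members. It made up a mean of 62.4%, 56.8% and 46.2% of the sum in replicates 1 to 3 of Space, Ground and BDF1, and 94.0%, 94.4% and 84.6% in replicates 4 to 6. The sum without Mup3, an alternative added after the values had been seen, was 6357 ± 536, 8150.3 ± 4113 and 8000.0 ± 1277 CPM in replicates 1 to 3. For replicates 4 to 6 it was 234 ± 162, 164 ± 47.1 and 420.4 ± 95.6 CPM. In the latter it was 2.57-fold lower in Ground than in BDF1, without overlap, and 1.80-fold lower in Space, with overlap.

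**Figure D4:**
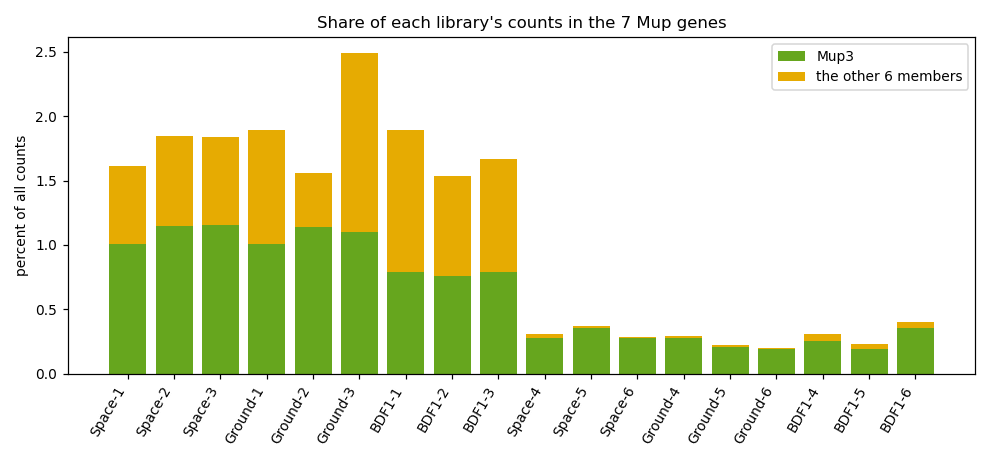
Percent of all counts taken by Mup3 and by the other 6 members (stacked bars from 0) in each of the 18 libraries. Together they take 1.53 to 2.49% of the counts in replicates 1 to 3 and 0.199 to 0.398% in replicates 4 to 6, where Mup3 is 81.7 to 96.7% of the bar.

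Of the other 15 Mup genes, 14 passed the filter, and Mup4 did not. Higher levels in replicates 1 to 3 were called for 11 of the 14 in Space, 12 in Ground and 8 in BDF1, beside 10.4%, 8.71% and 7.33% of all genes. Comparisons of groups in replicates 1 to 3 called 0 of the 14 by edgeR. Of all genes, 0.00749% were called there between Space and Ground, 4.64% between Space and BDF1 and 1.92% between Ground and BDF1. In replicates 4 to 6, 7 of 14 were lower in Space than in BDF1, namely Mup5, Mup6, Mup10, Mup12, Mup13, Mup14 and Mup19, with log2 differences of -2.99 for Mup14 to -1.37 for Mup10, beside 5.49% of all genes. In Ground, 8 of 14 were lower, these 7 and Mup15, with log2 differences of -3.78 for Mup14 and -3.72 for Mup15, beside 7.35% of all genes. The difference of Mup14 from BDF1 also differed between the replicate sets, by 3.64 in Ground (SE 0.65, adjusted p = 0.00896) and by 2.51 in Space (SE 0.63, adjusted p = 0.0393).

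Known sex-biased liver genes that depend on the same growth hormone pattern were read beside the members. Of 12 male-biased genes, among them the steroid enzyme Hsd3b5 and the fatty acid elongase Elovl3, all 12 were higher in replicates 1 to 3 in each group, beside 10.4%, 8.71% and 7.33% of all genes higher, with median log2 differences of 3.87, 4.04 and 3.48 in Space, Ground and BDF1. Of 13 female-biased genes, all 13 were lower in each group, beside 11.6%, 9.59% and 7.29% of all genes lower, with medians of -8.89, -7.66 and -10.5. In replicates 4 to 6, 3 of the 12 male-biased genes were lower in Space than in BDF1, namely Nudt7 (log2 -1.54), Elovl3 (log2 -2.35) and Cyp2d9 (log2 -1.03), beside 5.49% of all genes lower. In Ground, 4 were lower, namely Nudt7 (log2 -2.08), Elovl3 (log2 -4.04), Cyp2d9 (log2 -0.96) and the fatty acid hydroxylase Cyp4a12a (log2 -4.63), beside 7.35% of all genes lower. The organic anion transporter Slco1a1 was higher (log2 0.70), beside 7.86% of all genes higher. Its replicate 4 library in Ground, at 109 CPM, lay within the 87.4 to 124 CPM of BDF1. The BDF1 libraries of replicates 4 to 6 held a few reads of Y genes and the Ground libraries did not. The part of this in the male-biased values was not tested.

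Of the 13 female-biased genes, 4 cytochrome P450 genes of the Cyp3a family were higher in Space than in BDF1 in replicates 4 to 6, namely Cyp3a41b (log2 3.52), Cyp3a44 (log2 2.23), Cyp3a41a (log2 2.19) and Cyp3a16 (log2 2.54), beside 6.43% of all genes higher. In Ground these 4 were higher by 4.26, 2.40, 2.90 and 3.50, the acyl-CoA thioesterase gene Acot3 was higher by 2.68, with 291 and 278 CPM in the replicate 5 and 6 libraries and 49.5 in the replicate 4 library, within the 21.9 to 50.1 CPM of BDF1, and Cyp2b13 was lower (log2 -1.71), that is 5 of 13 higher and 1 lower beside 7.86% and 7.35% of all genes. No male-biased gene was called in replicates 1 to 3 in any comparison of groups by edgeR, beside 0.00749 to 4.64% of all genes. Of the female-biased genes, 1 of 13 was higher there in Ground than in BDF1, beside 1.14% of all genes. Relative to BDF1, the list median was 3.63 in Ground and 1.695 in Space on the log2 scale. Xist had 145, 187 and 1 counts in these replicates of Ground, 30, 0 and 1 in Space and 2, 4 and 2 in BDF1. The part of such reads in the female-biased values was not tested. Space and Ground did not differ by a call in either list in either replicate set.

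Growth hormone acts through its receptor Ghr, the kinase Jak2 and STAT5, and 10 of 11 genes of this signal were tested, Socs1 being too low. In replicates 1 to 3, Stat5a was lower in Space than in BDF1 (log2 -0.95, adjusted p = 0.0024), 1 of 10 beside 1.80% of all genes, and in replicates 4 to 6 Ghr (log2 2.39, adjusted p = 0.0306) and the phosphatase gene Ptpn1 (log2 0.66, adjusted p = 0.0306) were higher in Ground, 2 of 10 beside 7.86%. Ghr rose there through the replicate 5 and 6 libraries, at 4094 and 2323 CPM, since the replicate 4 library, at 446 CPM, lay within the 424 to 458 CPM of BDF1. The replicate 4 library of Space was at 3556 CPM and the other Space libraries of replicates 4 to 6 at 442 and 435 CPM. The other comparisons of groups within a replicate set called 0 of 10 by edgeR, beside 5.49% of all genes lower and 6.43% higher for Space against BDF1 in replicates 4 to 6 and 1.92% called for Ground against BDF1 in replicates 1 to 3. Between replicates 1 to 3 and 4 to 6, Igfals, which encodes a carrier of IGF1 in blood, was lower in all 3 groups (log2 -0.72, -0.75 and -0.87), Stat5a was lower in Space, and Ghr was lower in Ground, again through the replicate 5 and 6 libraries, the replicate 4 library being below the 494 to 592 CPM of replicates 1 to 3. Igfals in Ground was at 258 and 245 CPM in the replicate 5 and 6 libraries, while the replicate 4 library, at 112.7 CPM, was below the 112.85 to 136 CPM of replicates 1 to 3. In counts, 2 of 10 were lower in Space, 2 in Ground and 1 in BDF1, beside 11.6%, 9.59% and 7.29% of all genes.

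Among 17 liver transcription regulators, Cux2, a factor known as female-specific in mouse liver, was lower in replicates 1 to 3 than in replicates 4 to 6 in all 3 groups, with log2 differences of -7.65, -8.23 and -5.68 in Space, Ground and BDF1. The values of Space and Ground include the 3 libraries that stood apart with high Cux2, as given above. Trim24 and Cebpa were also lower in all 3. In counts, 2 regulators were higher and 7 lower in Space, beside 10.4% and 11.6% of all genes, 3 and 7 in Ground, beside 8.71% and 9.59%, and 2 and 5 in BDF1, beside 7.33% and 7.29%. Against BDF1 in replicates 1 to 3, 2 of 17 were higher in each pup group, beside 2.85% of all genes in Space and 1.14% in Ground, of which Cebpb was higher in Space (log2 1.42) and in Ground (log2 1.39). Foxa3 was the regulator called in replicates 4 to 6, higher in Space (log2 1.64) and in Ground (log2 1.75). This was 1 of 17 in each, near the share of all genes called higher, 6.43% in Space and 7.86% in Ground. Onecut1, which encodes HNF6, was called in none of these comparisons.

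Other lipocalins of the liver were read for comparison. Of 8 tested, the acute-phase gene Orm1 was higher in Space than in BDF1 in replicates 4 to 6 (log2 0.85), beside 6.43% of all genes, and Orm3 was lower in Ground (log2 -1.30), beside 7.35%. In replicates 1 to 3, 0 of 8 were called by edgeR, beside 1.80% of all genes lower and 2.85% higher in Space and 1.92% called in Ground. None was higher in replicates 1 to 3 than in replicates 4 to 6, and 3 were lower in Space, 2 in Ground and 1 in BDF1, beside 11.6%, 9.59% and 7.29% of all genes.

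The genes beside the cluster were read in the same comparisons. Of the 3 nearest coding genes on each side, Inip, Snx30, Fkbp15 and Slc31a2 were tested, and Slc46a2 and Zfp37 were not. Between replicates 1 to 3 and 4 to 6, 0 of the 4 were called higher in any group by edgeR. Of all genes, 10.4%, 8.71% and 7.33% were higher in Space, Ground and BDF1. Snx30 was lower in Space (log2 -0.90) and in Ground (log2 -1.32), and Fkbp15 was lower in both (log2 -0.52 and -0.55). These were 2 of 4 in each, beside 11.6% and 9.59% of all genes lower, and 0 of 4 in BDF1, beside 7.29%. Snx30 was also higher in Ground than in BDF1 in replicates 4 to 6 (log2 1.08, edgeR adjusted p = 0.0028), beside 7.86% of all genes higher. Fkbp15 was lower in Space than in BDF1 in replicates 1 to 3 (log2 -0.33, adjusted p = 0.0426), beside 1.80% of all genes lower.

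The genes whose level was most like the sum of the members over the 18 libraries were the complement gene C6 (Pearson r = 0.983), Nat8f5 (0.976), Hsd3b5 (0.975), Kdm5d (0.974) and Gstp1 (0.974). These points share the split by replicate set. With each value centred on the mean of its replicate set, the most alike were 4732465J04Rik (0.769), Hikeshi (0.748), Sgf29 (0.743), Pfdn4 (0.724) and Fundc1 (0.71). Among the members centred in this way, Mup1, Mup7, Mup11, Mup17 and Mup20 had coefficients of 0.58 to 0.86 with one another and Mup3 and Mup21 had 0.51, while Mup3 with the former 5 had -0.53 to -0.05. Near-identical members can share reads, and the part of this in their likeness was not tested.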

How the data were processed

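RNA was extracted from mouse liver with TRIzol and RNeasy columns and sequenced after a stranded mRNA library preparation. The authors deposited raw counts per gene for the 18 libraries, not normalized. Their processing notes name bcl2fastq 2.20, cutadapt 4.6, HISAT2 2.2.1, HTSeq 2.0.2 and mm10, and the study's methods name the GENCODE M21 annotation. The strand setting and the handling of reads that fit several genes were not given in the sources used here.

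Counts were analysed with edgeR 4.0.16 in R 4.3.3. Genes were filtered with filterByExpr (13356 of 32285 kept, 10671 being 0 everywhere), scaled by TMM, and fitted with the quasi-likelihood test over 6 combinations of group and replicate set. P-values were two-sided, adjusted by Benjamini-Hochberg over all genes tested and called below 0.05. CPM use TMM-scaled totals. The sum over the members received no test. Total counts of 15407450 to 20562351 per library set the precision. Scripts were tested on simulated data. Sequences and annotation were read with Python 3.11.15 and Biopython 1.88.

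The members and gene lists were chosen with earlier results of these data known. All members are described, with every other Mup gene tested, up to 4 called genes per list and direction (for the comparison of replicate sets, genes were named after their values had been seen), the 5 genes most like the sum, and the 3 nearest coding neighbours on each side. Alternatives were other scalings, filters, tests (DESeq2 1.42.0, limma 3.58.1 voom), designs, a threshold of 0.01, a replicate block, and leaving out each library. A few called genes of the lists are not reported here by name, and the counts of each list include them.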

Additional observations from a re-analysis of the deposited data

Results flagged for a closer look

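Several genes had a difference from BDF1 that itself differed between replicates 1 to 3 and replicates 4 to 6, by the interaction term of the edgeR fit over all genes. Among the Mup genes, the log2 difference of the changes was 3.46 for Mup11, 3.17 for Mup20 and 3.64 for Mup14 in Ground, and 2.51 for Mup14 in Space. Among the male-biased liver genes it was 2.13 for Nudt7, 3.73 for Elovl3 and 5.25 for Cyp4a12a in Ground, and 1.98 for Nudt7 and 2.22 for Elovl3 in Space. Among the female-biased genes it was 5.69 for Cyp2b13 and -2.13 for Cyp3a44 in Ground, and -2.32 for Cyp3a44 in Space. Cyp2b13 had 42, 43 and 0 counts in Ground replicates 1 to 3, and the 2 libraries with 42 and 43 also had 145 and 187 counts of Xist. Among the regulators it was -1.94 for Foxa3 in Ground, -1.87 for Foxa3 and 1.55 for Cebpb in Space, and for the growth hormone signal it was -1.05 for Stat5a in Space. Positive values mean that the difference from BDF1 was higher in replicates 1 to 3. No such difference was called between Space and Ground.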

How the results depend on the processing

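Depth limits Mup1 and Mup11 in replicates 4 to 6 of the pups, which rest on 0 to 38 counts per library. The calls between replicates 1 to 3 and 4 to 6 kept their direction under every alternative. limma voom lost Mup1 there in Space and Ground (adjusted p = 0.0755 and 0.0528), and DESeq2 gave no adjusted p for Mup21.

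Members called, of 7, changed as follows. The number of all genes called also changed with the setting, as given below for total counts and the replicate block. These counts therefore describe the processing and are not results about the members. For Space against BDF1 in replicates 1 to 3 (1 as reported), 2 were called with no filter, 2 with DESeq2, 5 with only the 2 combinations compared in the fit, and 0 with limma voom, a threshold of 0.01 or the replicate block, and 0 to 2 with a library left out. For Ground against BDF1 in replicates 1 to 3 (0), 1 was called with DESeq2 and 1 with only the 2 combinations, and for Space against Ground in replicates 4 to 6 (0), 1 with DESeq2. For Space against BDF1 in replicates 4 to 6 (1), 3 were called with total counts, 2 with DESeq2, 3 with limma voom and 1 to 2 with a library left out. For Ground against BDF1 in replicates 4 to 6 (4), 2 passed a threshold of 0.01, and 2 to 4 were called with a library left out, with 2 called without the replicate 6 library of Ground or the replicate 4 or 6 library of BDF1. For the interaction, Space (0) gave 1 with no filter and 0 to 1 with a library left out, 1 without the replicate 4 library of Space or the replicate 2 library of Ground, and Ground (2) gave 0 at 0.01, 1 with limma voom, 1 with the replicate block and 1 to 3 with a library left out. Over both replicate sets, Space against BDF1 (3) gave 5 with total counts, 1 at 0.01, 0 with group alone and 2 to 5 with a library left out, and Ground against BDF1 (3) gave 5 with total counts, 5 with no filter, 0 with group alone and 3 to 5 with a library left out. Both counts of 5 with a library left out were without the replicate 4 library of Space. Without the replicate 4 library of Space and the replicate 5 and 6 libraries of Ground, added after seeing the data, 3 were called for Space and 1 for Ground against BDF1 in replicates 1 to 3, 2 and 2 in replicates 4 to 6, 2 and 1 for the interaction, and 5 for Space over both replicate sets.

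The log2 ratio of the sum moved with total counts to 0.033 from 0.42 for Space and to -0.40 from 0.06 for Ground against BDF1 in replicates 4 to 6, and between the replicate sets to 2.46 from 2.16 in Space and to 3.06 from 2.63 in Ground. Without Mup3, added after seeing the data, it was -0.36 for Space against Ground, -0.33 and 0.027 for Space and Ground against BDF1 in replicates 1 to 3 (from -0.10, 0.19 and 0.29), -0.85 and -1.36 for Space and Ground against BDF1 in replicates 4 to 6, and 4.76, 5.64 and 4.25 between the replicate sets (from 2.16, 2.63 and 2.40). With a library left out it was 0.22 to 0.68 for Space and -0.15 to 0.32 for Ground against BDF1 in replicates 4 to 6, and 2.19 to 2.66 between the replicate sets of BDF1.

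Uncalled members changed sign as follows. With limma voom, Mup7 had 0.15 for Space against Ground in replicates 1 to 3 (0.11 with the replicate block, -0.02 as reported) and -0.0011 in replicates 4 to 6, and Mup20 had -0.017 for Ground against BDF1 in replicates 1 to 3. With total counts Mup3 had -0.24 for Ground against BDF1 in replicates 4 to 6, and with group alone the called Mup20 had 0.11 for Ground against BDF1. With a library left out, the ranges for Space against Ground were -0.37 to 0.39 for Mup7 in replicates 1 to 3, and in replicates 4 to 6 -0.88 to 1.10 for Mup7, -0.98 to 0.15 for Mup11, -0.30 to 0.82 for Mup17 and -1.67 to 0.40 for Mup21. For Ground against BDF1 in replicates 1 to 3 they were -0.47 to 0.28 for Mup7, -0.78 to 0.035 for Mup17 and -0.34 to 0.48 for Mup20. For Space against BDF1 they were -0.21 to 0.071 for Mup7 in replicates 1 to 3 and -0.65 to 1.29 for Mup21 in replicates 4 to 6. Without the 3 libraries that stood apart, Space against Ground in replicates 4 to 6 had -0.73 for Mup7, -0.56 for Mup17 and 0.18 for Mup21, and Mup21 against BDF1 had -0.65 in Space and -0.84 in Ground. The causes were not tested.

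With total counts, Ground against BDF1 in replicates 4 to 6 called 402 genes higher and 5734 lower, against 1050 and 981. Replicate numbers do not pair the samples, since same-numbered libraries correlated at -0.60 to 0.25, with 3 of 18 pairs over 0.1. The replicate block lost the calls of Mup1 for Space against BDF1 in replicates 1 to 3 (adjusted p = 0.0547) and of Mup11 in the interaction for Ground (adjusted p = 0.0846). With the replicate block, calls over all genes fell from 620 to 354 and from 257 to 92 for Space and Ground against BDF1 in replicates 1 to 3, and from 1592 to 939 and from 2031 to 1383 in replicates 4 to 6.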
